A study of Mus musculus with 7 samples.

Results

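The 41 genes described here encode the machinery of autophagy and mitophagy and a set of lysosomal proteins, out of 21938 protein-coding genes annotated on the mm10 genome. They were listed by function, from the kinase complex that starts autophagy to the proteases that finish it, and were looked up in ChIP-seq peak lists, which record where a protein was recovered with DNA. The tissue was the gastrocnemius, a calf muscle rich in fast fibers, taken from male wild-type C57BL/6J mice aged 5 months. Muscles were collected at Zeitgeber Time (ZT) 4, counted in hours after lights on, for the clock activator BMAL1 and for RNAP2, the RNA polymerase that transcribes protein-coding genes, and at ZT 8 for the clock repressor REV-ERBα. Each protein has 2 biological replicates and thus 2 peak lists, and input DNA, labelled ZT 4, served the authors as the background for peak calling.

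In autophagy, a double membrane closes around cytoplasm or organelles and fuses with the lysosome, where the content is digested. The ULK1 kinase complex receives the starting signal, a class III PI3-kinase complex marks the membrane with the lipid PI3P, and 2 conjugation pathways attach ATG12 to ATG5 and ATG8 proteins to lipid. Receptors such as p62 bring cargo, BNIP3 and PINK1 mark mitochondria, and TFEB switches on lysosomal genes. In skeletal muscle this route removes damaged mitochondria and supplies amino acids during fasting. BMAL1 binds E-boxes, with the core CACGTG, and REV-ERBα binds AGGTCA sites or is held on DNA by other factors.

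All peaks in the body of a gene or within 10 kb of any of its annotated transcription start sites (TSSs) were assigned to it. Overlapping peaks of both replicates formed a region. The strength of a region is the lower of the replicates' −log10 p values. The −log10 p gives the significance of the enrichment at the summit over input, and the fold enrichment gives its size. The peaks were called at a p-value cutoff of 0.05, so the lists are long and weak at the bottom. They range from 28881 peaks (REV-ERBα replicate 1) to 177669 (BMAL1 replicate 2), and between 20.7% and 31% of each list sits at one repeated −log10 p value between 1.87 and 3.21. The X chromosome has 6.28% of the genome's length but between 0.0547% and 0.41% of the peaks of each list. Of 8 muscle fiber markers, all 8 had an RNAP2 region, with a median strength of 31.7. Lists for other cells gave 1 of 4 for endothelium, 3 of 4 for fibroblasts, 2 of 4 for macrophages and leukocytes, 2 of 3 for Schwann cells, and 0 of 3, 0 of 3 and 0 of 2 for adipocytes, smooth muscle and red blood cells. The muscle was not sorted into cell types, so strong binding in few cells and weak binding in many cannot be told apart.

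The results turn on the promoters of *Atg101* and *Ulk2*, where REV-ERBα lay in both replicates, and of *Bnip3*, where BMAL1 did. Each is shown for the 200 bases before its TSS, read 5′ to 3′ along the gene, from GRCm38 (mm10), so that the place of the summits can be seen. In the first and second sequence the capitals run from one replicate's REV-ERBα summit to the other's, and in the third the capitals mark an E-box.
*Atg101*, chr15:101284072-101284271, plus strand: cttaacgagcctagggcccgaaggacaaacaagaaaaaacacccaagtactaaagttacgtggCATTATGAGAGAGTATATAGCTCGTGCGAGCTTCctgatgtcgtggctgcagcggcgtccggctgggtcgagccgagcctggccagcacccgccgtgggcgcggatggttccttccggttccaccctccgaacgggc
*Ulk2*, chr11:61855074-61855273, minus strand: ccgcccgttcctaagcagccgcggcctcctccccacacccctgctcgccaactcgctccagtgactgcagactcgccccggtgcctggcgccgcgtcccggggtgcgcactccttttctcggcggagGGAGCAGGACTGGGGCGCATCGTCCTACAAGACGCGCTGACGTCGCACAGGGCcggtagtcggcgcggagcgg
*Bnip3*, chr7:138909520-138909719, minus strand: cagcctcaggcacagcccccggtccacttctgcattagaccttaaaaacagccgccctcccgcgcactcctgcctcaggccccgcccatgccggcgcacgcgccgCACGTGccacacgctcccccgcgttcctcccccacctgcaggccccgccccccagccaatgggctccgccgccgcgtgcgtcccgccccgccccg
No annotated UTR lies in these 3 stretches. G and C make up 59.5%, 72% and 75% of their bases, with 18, 26 and 23 CG dinucleotides.

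RNAP2 was present at most of the pathway. A region in both replicates was found at 28 of the 41 genes (68.3%), against 41.1% of all other protein-coding genes. A region with a strength of at least 3 was found at 25 of 41 (61%), against 29.3% of the others. Among genes with a region, the median strength was 7.05 (quartiles 4.3 and 10.1) for the 28 autophagy and lysosome genes and 4.47 (quartiles 2.64 and 7.47) for the 8999 others. The strongest region covered a TSS of the gene itself in 25 of the 28 (89.3%) and in 62.3% of the others. These are counts beside a background, and no test was made of the list.

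**Figure D1:**
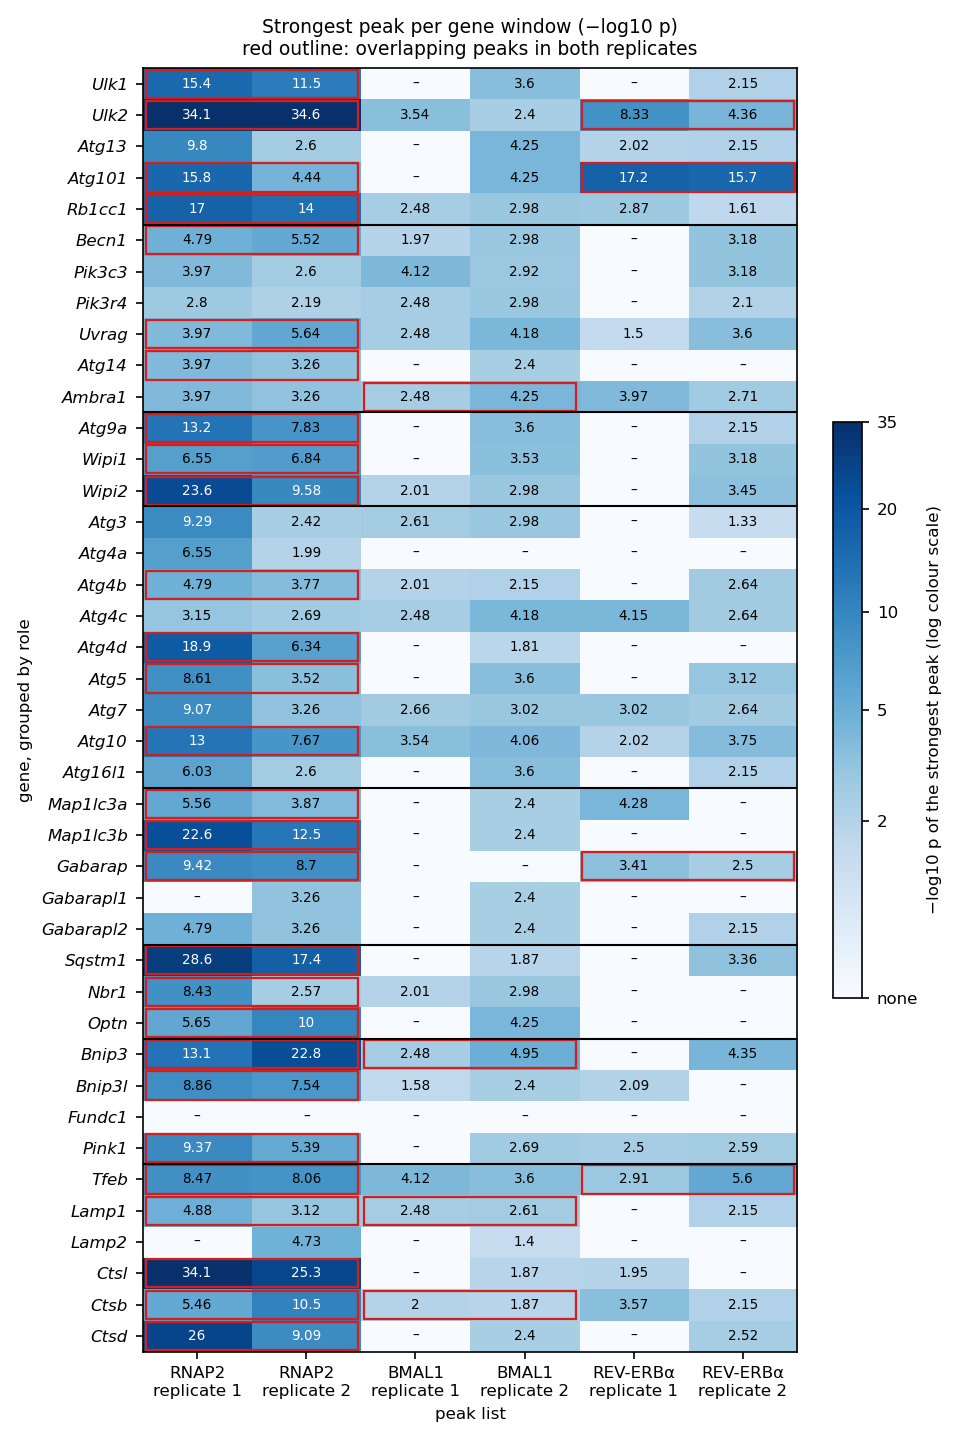
Strongest peak of each of the 41 genes in each of the 6 lists, as −log10 p of the strongest peak in the gene body or within 10 kb of a TSS, with genes in rows grouped by role and lists in columns. A red outline marks genes with overlapping peaks in both replicates, which need not be the strongest peaks shown, and a dash marks no peak. RNAP2 is outlined at 28 genes, BMAL1 at 4 and REV-ERBα at 4.

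Of the ULK1 complex, which starts autophagy, 4 of 5 genes had an RNAP2 region, with a median strength of 12.8. *Ulk2*, a kinase subunit, had the strongest region of all 41 genes, with −log10 p of 34.1 and 34.6 in replicates 1 and 2 and fold enrichments of 12.6 and 12.9 over input, and its summits lay 17 and 15 bp into the gene. Of the 8999 other genes, 88 (0.978%) had a stronger region. *Rb1cc1*, which encodes the scaffold FIP200, had 17 and 14. *Ulk1*, the paralog of *Ulk2*, had 15.4 and 11.5. *Atg101*, a small subunit that binds ATG13, had 15.8 and 4.44, so that its replicates lay farther apart than those of the other 3 genes. *Atg13* itself had no overlapping peaks: its strongest peaks were 9.8 in replicate 1, nearest to the TSS of *Harbi1*, which starts on the opposite strand 276 bp away, and 2.6 in replicate 2.

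Of the PI3-kinase complex, 3 of 6 genes had a region, all below the median of the 28. *Becn1*, which encodes the scaffold Beclin 1, had 4.79 and 5.52 at its TSS, and *Uvrag*, a subunit of the endosomal form of the complex, had 3.62 and 5.64. *Atg14*, the subunit that directs the complex to autophagy, had 3.97 and 1.99, the weakest region of the 28, in an intron nearer to the TSS of *Fbxo34*. The lipid kinase gene *Pik3c3*, its partner *Pik3r4* and the regulator *Ambra1* had peaks in each list that did not overlap, with the strongest at 3.97 and 2.6, 2.8 and 2.19, and 3.97 and 3.26. All 3 genes that supply membrane or read PI3P had a region at a TSS. *Wipi2*, a PI3P reader, had 23.6 and 9.58, *Atg9a*, a lipid scramblase, 13.2 and 7.83, and *Wipi1* 6.55 and 6.84. *Ankzf1* starts on the opposite strand 4 bp from *Atg9a* and had the same 13.2 and 7.83, so that these genes cannot be told apart.

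Of the 9 conjugation genes, whose products attach ATG8 and ATG12, 4 had a region (44.4%), beside 41.1% of all other protein-coding genes. This was the lowest share of the 8 groups, with the PI3-kinase complex next at 3 of 6 genes. *Atg10*, which joins ATG12 to ATG5, had 13 and 7.67, and the protease gene *Atg4d* had 18.9 and 6.34. *Atg4b* had 3.45 and 3.77, and *Thap4* starts on the opposite strand 41 bp away. *Atg5* had 8.61 and 2.38 at its TSS, the second weakest of the 28. The other 5 had peaks that did not overlap. The E2-like enzyme gene *Atg3* had 9.29 in replicate 1, with its summit 9 bp from the TSS, and 2.42 in an intron in replicate 2. The E1-like enzyme gene *Atg7* had 9.07, 22 bp from a TSS, and 3.26 in an intron. *Atg16l1*, which encodes the platform for conjugation, had 6.03 and 2.6, and *Atg4a*, on the X chromosome, 6.55 and 1.99. *Slc35a5* and *Psmd10* start on the opposite strand 79 and 179 bp from *Atg3* and *Atg4a*. *Atg4c* had no more than 3.15 and 2.69.

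Of the ATG8 family, whose members coat the membrane and hold cargo receptors, 3 of 5 had a region. *Map1lc3b* (LC3B) had 22.6 and 8.12 at its TSS, and a second region about 5 kb upstream, with summits at −4953 and −4991 bp, had 12.2 and 12.5 and was the stronger by the lower value. *Map1lc3a* (LC3A) had 5.56 and 3.87. *Gabarap* had 9.42 and 5.91 at its own TSS, and the strongest region in its window, 12.3 and 8.7, lay at the TSS of *Ctdnep1*. *Gabarapl1* had no peak in replicate 1 and 3.26 in replicate 2, and *Gabarapl2* had 4.79 and 3.26 at different places. Of these 5 genes, *Gabarapl1* was thus the one without a peak in both lists.

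All 3 cargo receptor genes had a region. *Sqstm1* (p62) had 28.6 and 17.4, the third strongest of the 28. Its region also covered *Mgat4b*, which starts on the opposite strand 63 bp away and whose TSS was the nearest, at 14 bp from the center of the region, so that the 2 genes cannot be told apart. *Optn* (optineurin) had 5.65 and 10. *Nbr1* had 8.43 and 2.57, and *Brca1* starts on the opposite strand 194 bp away. Among mitophagy genes, *Bnip3*, which encodes a receptor on the mitochondrial outer membrane, had 13.1 and 22.8, and its paralog *Bnip3l* (NIX) 8.86 and 7.54. *Pink1*, the kinase that marks depolarized mitochondria, had 9.37 and 5.39. *Fundc1*, on the X chromosome, had no peak in any of the 6 lists.

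Among lysosomal genes, 5 of 6 had a region. *Ctsl* (cathepsin L) had 34.1 and 25.3, the second strongest of the 28, and *Ctsd* (cathepsin D) 26 and 9.09. *Ctsb* (cathepsin B) had 5.46 and 10.5, and *Tfeb* 8.47 and 8.06. *Lamp1*, a membrane protein of the lysosome, had 4.88 and 3.11. *Lamp2*, on the X chromosome, had no peak in replicate 1 and 4.73 at its TSS in replicate 2. All 3 X-linked genes of the 41 were thus without a region, beside 11.3% of 948 X-linked genes and 42.9% of 20807 autosomal genes with one. The part of the sparse X chromosome in this was not tested.

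**Figure D2:**
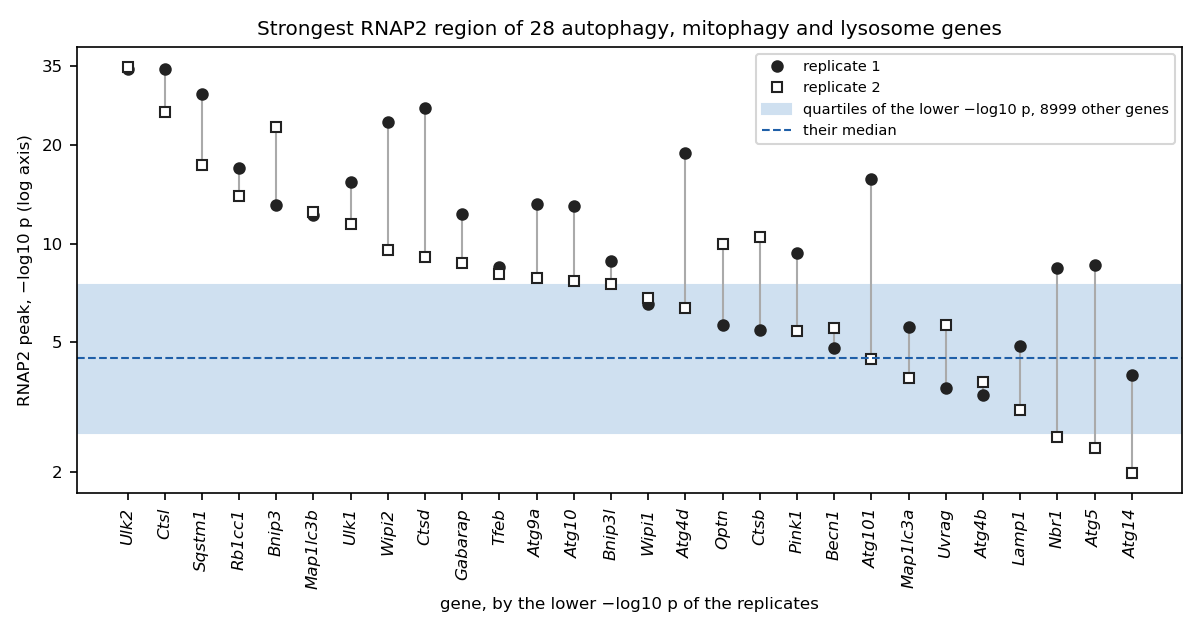
RNAP2 −log10 p at the strongest region of the 28 genes that had one, in replicate 1 (filled circles) and replicate 2 (open squares). The axis is logarithmic, and genes are ordered by the lower value. The band and dashed line give the quartiles and median of the lower value over 8999 other genes. *Ulk2*, *Ctsl* and *Sqstm1* lead, 20 of the 28 have a lower value above the dashed line at 4.47, and the lower values of *Nbr1*, *Atg5* and *Atg14* lie below the band.

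The 13 genes without an RNAP2 region were Atg13, Pik3c3, Pik3r4, Ambra1, Atg3, Atg4a, Atg4c, Atg7, Atg16l1, Gabarapl1, Gabarapl2, Fundc1 and Lamp2. In 9 of them replicate 1 had a summit within 1 kb of a TSS, and in 4 replicate 2 did. For 6 the promoter summit was in replicate 1 alone. These genes are called absent by the rule of 2 overlapping lists, and the peaks of replicate 1 at *Atg3*, *Atg7* and *Atg13* are above 8.74, the median of the strongest peak in replicate 1 over the 38 genes that had one. The numbers of reads at these promoters are unknown.

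REV-ERBα at ZT 8 had a region at 4 of the 41 genes, *Ulk2*, *Atg101*, *Gabarap* and *Tfeb*. All 4 also had RNAP2, which gives 14.3% of the 28, beside 8.48% of the 8999 other genes with RNAP2 and 9.95% of the 6424 whose RNAP2 strength was at least 3. At each of the 4, a REV-ERBα region lay within 1 kb of a TSS, where 4.13% of the 8999 other genes had one. The strongest RNAP2 region lay within 1 kb of a TSS in 89.3% of the 28 and 67.5% of the 8999. The part of RNAP2 position in the promoter share was not tested. Of the 5 genes of the ULK1 complex 2 had a region, and of the PI3-kinase complex, the membrane group, the conjugation genes, the cargo receptors and the mitophagy genes 0 had one.

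*Atg101* had the strongest of these regions. REV-ERBα had −log10 p of 17.2 and 15.7, fold enrichments of 6.14 and 6.05, and −log10 q of 12.2 and 10.8 in replicates 1 and 2. The summits lay at −104 and −137 bp from the TSS, within the capitals printed above. The region at chr15:101283877-101284460 ranked 85 of the 1263 REV-ERBα regions of the genome. Both replicates were nearly equal here, and *Atg101* was the one gene of the 41 whose −log10 q reached 1.3 in both lists. Of the other genes with RNAP2, 2.78% had a REV-ERBα region from peaks at that threshold. BMAL1 had no peak at the *Atg101* promoter. The stronger of the 2 BMAL1 peaks in the window, 4.25, was in replicate 2, as was the other, and lay 4639 bp from a TSS and downstream of the gene.

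*Ulk2* carried 2 REV-ERBα regions. That at the promoter, chr11:61854840-61855363, had 8.33 and 4.36, fold enrichments of 4.03 and 2.92 and summits at −73 and −21 bp, and it ranked 276 of 1263. Its −log10 q was 3.72 and 0.223, so it passed a threshold of 1.3 in replicate 1 alone. The second, in an intron at chr11:61829849-61830853, about 24 kb into the gene, had 2.5 and 2.64, about the median of each list, 2.50 and 2.59. A BMAL1 peak of replicate 1, 2.29, overlapped this intronic region, while BMAL1 replicate 2 had no peak there. At the *Ulk2* promoter REV-ERBα thus lay within 100 bp of the TSS of the gene with the strongest RNAP2 region of the list. The 8 muscle fiber markers had a median RNAP2 strength of 31.7. All 8 had a REV-ERBα region in the window and 7 a BMAL1 region, beside 8.48% and 10.3% of the other genes with RNAP2. The strongest REV-ERBα regions in the windows of *Mylpf* and *Actn3* were nearest to *Sept1* and *Ctsf*. The part of RNAP2 strength in the REV-ERBα peaks at *Ulk2* was not tested. *Ulk1*, which encodes a kinase of the same family, had no REV-ERBα peak in replicate 1 and 1 peak of 2.15 in replicate 2, the most frequent value of that list.

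*Tfeb* had 2.54 and 5.6 in a region at chr17:47737346-47737990, ranked 612 of 1263, with fold enrichments of 2.2 and 3.34. The summits lay at −93 and 65 bp from the nearest of its 14 annotated TSSs, in an intron and in a UTR. *Gabarap* had 1.79 and 2.5 at chr11:69990983-69991749, ranked 1060 of 1263, with summits at −59 and 76 bp. Its strongest REV-ERBα peak, 3.41 in replicate 1, was another, nearest to *Ctdnep1*. The 4 genes thus lie far apart in strength, with lower −log10 p values from 1.79 to 15.7.

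In the separate lists REV-ERBα had a peak at 16 of the 41 genes (39%) in replicate 1, beside 38.7% of all other protein-coding genes, and at 29 (70.7%) in replicate 2, beside 40.1%. Of the 28 genes with RNAP2, it had a peak at 12 (42.9%) and 20 (71.4%), beside 49.8% and 52.7% of the other genes with RNAP2. The share was thus well above both backgrounds in replicate 2 and near or below them in replicate 1, although the lists are of nearly equal length. The windows of the 41 genes are longer, with a median of 42.9 kb beside 30.2 kb for all other protein-coding genes. Per 100 kb of window they held 1.17 peaks in replicate 1 and 2.14 in replicate 2, beside 1.23 and 1.32 for those genes. The part of window length in these shares was not tested. Of the 60 peaks of replicate 2, 13 (21.7%) had the value 2.15, beside 21.6% of that whole list. The peaks with −log10 p of at least 3 fell at 8 of the 41 genes in replicate 1 (19.5%) and at 12 in replicate 2 (29.3%), beside 15.8% and 17.3% of all other protein-coding genes, and *Ulk2* and *Atg101* were the 2 genes in both. At a promoter in 1 list alone, *Map1lc3a* had 4.28 in replicate 1 at −63 bp, *Atg7* 3.02 in replicate 1 at 810 bp, and *Bnip3* 4.35 in replicate 2 at −88 bp. Away from promoters, *Ambra1* had 3.97, *Atg4c* 4.15 and *Ctsb* 3.57 in introns in replicate 1. In replicate 2, the strongest such peaks were 3.75 for *Atg10*, 3.6 for *Uvrag*, 3.45 for *Wipi2* and 3.36 for *Sqstm1*, and *Becn1*, *Pik3c3*, *Wipi1* and *Atg5* had between 3.12 and 3.18. No REV-ERBα peak in either list was found at Atg14, Atg4a, Atg4d, Map1lc3b, Gabarapl1, Nbr1, Optn, Fundc1 and Lamp2.

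**Figure D3:**
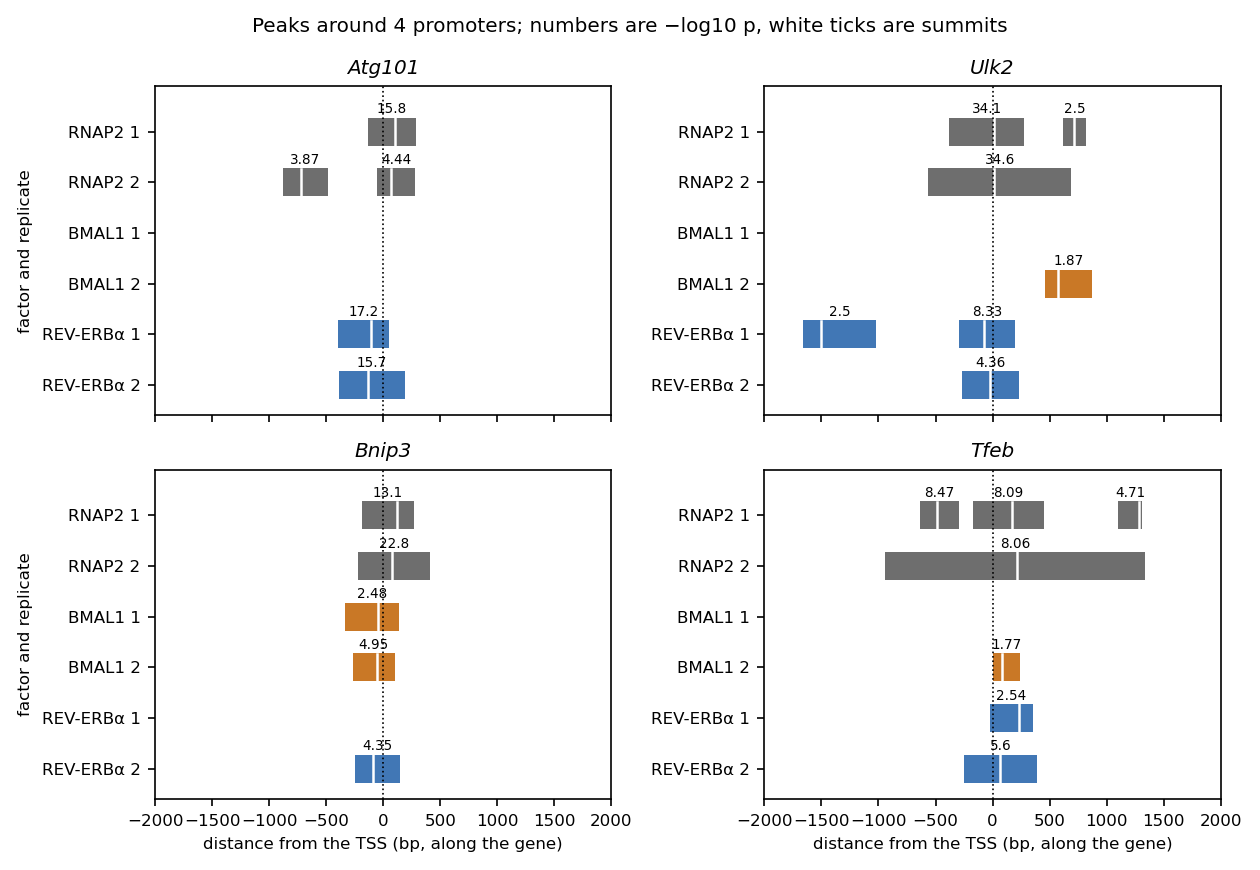
Peaks of the 6 lists around the TSS of *Atg101*, *Ulk2*, *Bnip3* and *Tfeb*, drawn to scale as bars against the distance from the TSS in bp along the gene, with summits as white ticks and −log10 p above each bar. REV-ERBα bars of both replicates span the TSS of *Atg101* (17.2 and 15.7) and *Ulk2* (8.33 and 4.36), and BMAL1 bars of both replicates span that of *Bnip3* (2.48 and 4.95).

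BMAL1 at ZT 4 had a region at 4 of the 41 genes, *Bnip3*, *Lamp1*, *Ctsb* and *Ambra1*, and the first 3 had RNAP2 too. That is 10.7% of the 28, beside 10.3% of the other genes with RNAP2 and 9.54% of those with an RNAP2 strength of at least 3. One of the 4, *Bnip3*, had the region within 1 kb of a TSS (3.57% of the 28), beside 1.43% of the others. The share of genes with BMAL1 was therefore close to the background. No BMAL1 peak at any of the 41 genes reached a −log10 q of 1.3. Few did in the whole lists, 92 of 34737 in replicate 1 and 36 of 177669 in replicate 2. Of the other genes with RNAP2, 0.267% had a BMAL1 region from such peaks.

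At *Bnip3*, BMAL1 had 2.48 and 4.95, fold enrichments of 2.22 and 3.46 and summits at −44 and −52 bp. The region at chr7:138909379-138909850 ranked 350 of 2742 BMAL1 regions. Its strength, 2.48, was about the median of the whole replicate 1 list. Regions of equal strength were ranked by position, and the *Ambra1* region, also at 2.48, ranked 319. The −log10 q at *Bnip3* was 0 in both replicates. The CACGTG printed in capitals starts at −95 bp. REV-ERBα had a peak over the same promoter in replicate 2, with 4.35, a fold enrichment of 3.01 and a summit at −88 bp, and none in replicate 1, so that 3 of the 4 lists met there. At *Ambra1* the region lay in an intron, with 2.48 and 2.98, and was nearer to the TSS of *Chrm4*. At *Ctsb* it lay upstream, with 2 and 1.87 and summits at −6620 and −7020 bp. At *Lamp1* it had 1.59 and 1.4, lay nearer to *Cul4a* and ranked 2644 of 2742.

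In the separate lists BMAL1 had a peak at 19 of the 41 genes (46.3%) in replicate 1, beside 38.2% of all other protein-coding genes, and at 38 (92.7%) in replicate 2, beside 84.4%. Of the 28 genes with RNAP2, it had a peak at 13 (46.4%) and 27 (96.4%), beside 48.3% and 93.1% of the other genes with RNAP2. Replicate 1 had peaks of at least 3 at 4 of the 41 genes (9.76%, beside 9.42% of all other protein-coding genes), Ulk2, Pik3c3, Atg10 and Tfeb, with maxima of 3.54, 4.12, 3.54 and 4.12. Replicate 2 had such peaks at 15 genes (36.6%, beside 22.8%), with maxima between 3.02 and 4.95. The median window was 42.9 kb for the 41 genes and 30.2 kb for all other protein-coding genes, and the part of window length in these shares was not tested. *Atg10* and *Tfeb* were in both, at different places. At a promoter, *Atg13* had 4.18 in replicate 2 at −121 bp, *Atg16l1* 3.26 in replicate 2 at −395 bp and *Tfeb* 4.12 in replicate 1 at 377 bp, each with no overlapping peak in the other list. *Ulk1* had no BMAL1 peak in replicate 1 and a maximum of 3.6 in replicate 2, 1824 bp from a TSS. *Gabarap*, *Atg4a* and *Fundc1* had no BMAL1 peak in either list.

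Peaks from 3 or all 4 of the clock protein lists met, directly or through a peak of another list, at 3 of the 41 genes, *Ulk2*, *Bnip3* and *Tfeb*. All 3 had RNAP2, which gives 10.7% of the 28, beside 3.01% of the other genes with RNAP2 and 3.41% of those with an RNAP2 strength of at least 3. A different list was missing at each. At the *Ulk2* intron BMAL1 replicate 2 was missing, at the *Bnip3* promoter REV-ERBα replicate 1, and at the *Tfeb* promoter BMAL1 replicate 1, where replicate 2 had 1.77. The BMAL1 peak at the *Ulk2* intron ended at 61829911. It overlapped the REV-ERBα peak of replicate 2, which began at 61829849, and not that of replicate 1, which began at 61830095. When an overlap of at least 50% of the shorter peak was asked for, *Ulk2* had no such site, and *Bnip3* and *Tfeb* did. The share rests on 3 genes. The BMAL1 lists come from ZT 4 and those of REV-ERBα from ZT 8, so they do not show both proteins at the same time.

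**Figure D4:**
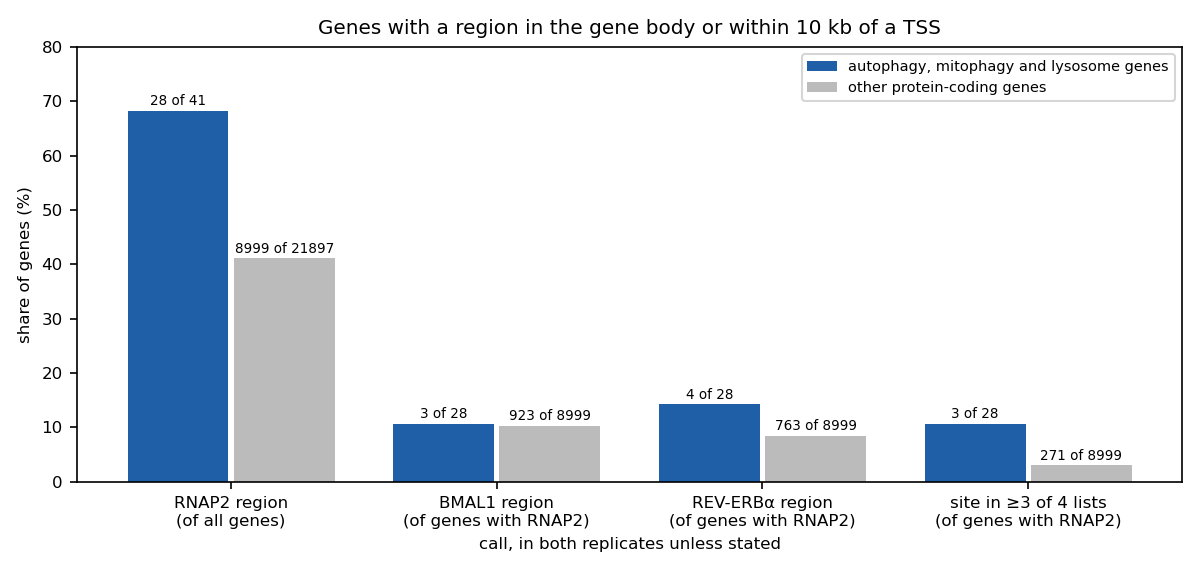
Share of genes in percent with an RNAP2 region (of all genes), and with a BMAL1 region, a REV-ERBα region or a site where 3 or more of the 4 clock protein lists met (of genes with an RNAP2 region), for the autophagy, mitophagy and lysosome genes (blue) and for the other protein-coding genes (grey). Counts stand above the bars, which have no error because each is 1 count of genes. The blue and grey bars are at 68.3% and 41.1% for RNAP2 and at 10.7% and 10.3% for BMAL1.

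Short sequences were searched on both strands within 100 bp of the middle of the replicates' summits. The E-box searched was CACGTG, and its extended form, which contains it, was GTCACGTG. The REV-ERBα site was AGGTCA. A variant of that site, GGGTCA, was also searched. The forkhead sequence was TGTTTAC, and the E-box of myogenic factors was CAGCTG. Of the 4 BMAL1 regions, that of *Bnip3* held the E-box, which 2.52% of all 2742 BMAL1 regions held. That of *Lamp1* held the REV-ERBα site (10.6% of all) and that of *Ctsb* its variant (6.53%). Of the 5 REV-ERBα regions, 0 held any of the 6 sequences. Of all 1263 REV-ERBα regions, 4.28% held the E-box and 0.792% its extended form, 12.7% the REV-ERBα site and 8.71% its variant, 3.01% the forkhead sequence and 12% the myogenic E-box. None of the 6 occurs in the 200 bases printed for *Atg101* and *Ulk2*. These letters are exact, and their absence from a window says nothing about how a protein was held there.

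Further genes of the same pathways, 102 in 5 lists made by function, were counted in the same way. An RNAP2 region was found at 71 of them (69.6%), close to the share in the 41 genes, with a median strength of 5.07. Of the 71, 7 had a BMAL1 region (9.86%), 5 a REV-ERBα region (7.04%) and 1 a site where 3 or more clock protein lists met (1.41%). These shares are close to or below the 10.3%, 8.48% and 3.01% of the other genes with RNAP2, so the higher shares of REV-ERBα regions and such sites in the 28 genes were not seen in the wider lists. REV-ERBα regions with a strength of at least 3 stood at 4 of the 102, of which *Wdr45* had no RNAP2 region. Of the other protein-coding genes with RNAP2, outside the 41, 5.06% had a REV-ERBα region from peaks of at least 3. That share is over genes with RNAP2 only, and the count over all 102. *Flcn* (folliculin), which controls how nutrients reach TFEB and its relatives, had 43.2 and 48.4 in replicates 1 and 2. *Atp6v0c*, a subunit of the proton pump that acidifies the lysosome, had 27.4 and 24.3. *Wdr45*, an X-linked PI3P reader of the WIPI family, had 28.8 and 23.2, and RNAP2 had 7.49 there in replicate 1 and no peak in replicate 2. *Ctsf* (cathepsin F) had 5.41 and 3.36, had a BMAL1 region of strength 3.6, and shares its window with the muscle gene *Actn3*. The values at *Flcn*, *Atp6v0c* and *Wdr45* are above that of *Atg101*, and the nearest TSS was their own.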

How the data were processed

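ChIP-seq peak lists of gastrocnemius muscle were used, 2 biological replicates each for BMAL1, REV-ERBα and RNAP2. Per the labels and methods, the authors aligned reads with BWA 7.12 to mm10, brought replicates of a factor to like read numbers and ran Macs2 2.1.1 per sample against input DNA (p-value cutoff 0.05). For each summit, the deposited columns of −log10 p, −log10 q and fold enrichment are as the authors' peak caller wrote them. The deposited score was not used. Reads per peak and depth are not in the lists, so no counting interval is given. The replicates' lists differ in length, and a longer list overlaps more by that alone.

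A shared stretch of 1 bp was enough to merge peaks into a region. Genes and TSSs came from GENCODE M21, and sequences from RefSeq's GRCm38.p6 assembly. All 41 genes matched by symbol. The genes, lists and motifs were chosen with earlier results of these data known, so no list test was made, and counts are given beside those of all other genes. With 2 replicates per factor the spread is given as both values. Named genes are those with a BMAL1 or REV-ERBα region or shared site, and the 6 strongest and the weakest for RNAP2. Those without an RNAP2 region are named too, as are those with a BMAL1 or REV-ERBα −log10 p of at least 3 in 1 list. Neighbors are named where they lie nearer to a region or start on the opposite strand within 1 kb of a TSS. The remaining genes are named by role with their values. From other lists, genes with a strength of at least 3 for REV-ERBα are named. A further 7 short sequences were looked at around the summits and are not reported. Alternatives were stricter thresholds, equal list lengths, larger overlap, other windows and each replicate left out. The code was tested on simulated peaks. Python 3.11.15, numpy 2.4.6, pysam 0.24.0 and matplotlib 3.10.9 were used. A gene of the further lists is not reported here. Input DNA, read densities and expression were not analysed here.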

Additional observations from a re-analysis of the deposited data

How the results depend on the processing

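No paired analysis was possible because the results are counts of genes with overlapping peaks and come from no test.

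The number of the 41 genes with an RNAP2 region stayed between 20 and 40 under every alternative, main value 28, and the median strength between 5.45 and 8.74, main value 7.05. Of all other protein-coding genes, 18.9% had a region at the setting that gave 20 and 86.4% at the one that gave 40. The BMAL1 count, 4, fell to 0 with peaks of a −log10 p of at least 3 and to 0 with a −log10 q of at least 1.3. At these thresholds 0.733% and 0.267% of the other genes with RNAP2 had a BMAL1 region. The BMAL1 count was 2 with lists of equal length, 1 within 1 kb of a TSS (*Bnip3*) and 2 when a region counted for the gene with the nearest TSS, and 3 or 4 with the gene body left out or a larger overlap. With either BMAL1 replicate left out, the remaining list alone gave between 19 and 38, and between 48.3% and 93.1% of the other genes with RNAP2. The REV-ERBα count, 4, fell to 2 at a −log10 p of at least 3 (*Ulk2* and *Atg101*) and to 1 at a −log10 q of at least 1.3 (*Atg101*), and was 4 under the other overlap, window and length rules. At these thresholds 5.06% and 2.78% of the other genes with RNAP2 had a REV-ERBα region. With either REV-ERBα replicate left out the count was between 16 and 29, beside between 49.8% and 52.7% of the other genes with RNAP2. Sites where 3 or more of the clock protein lists met fell from 3 to 0 at both stricter thresholds, were 2 or 3 under the other rules and between 0 and 1 when all 3 lists left after dropping one had to meet. At those thresholds 0.922% and 0.367% of the other genes with RNAP2 had such a site. *Ulk2* had none with a larger overlap or with the gene body left out, and *Tfeb* none with lists of equal length. Restricting the genes to those with an RNAP2 strength of at least 3, chosen after seeing the data, left 3, 4 and 3 for BMAL1, REV-ERBα and such sites. Within 50 bp of the summit, AGGTCA was held by 0 regions and GGGTCA by 0, from 1 each, and within 200 bp AGGTCA by 2 and CAGCTG by 1, from 1 and 0. The stricter thresholds, equal lengths, narrower windows and left-out lists change which peaks or regions count, and the motif windows change the length of sequence searched.

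The replicates' lists are of unequal length for BMAL1 and RNAP2, and reads per peak are unknown, so weak regions, such as those at *Lamp1* and *Gabarap*, rest on values near the bottom of the lists.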
